A study of Mus musculus with 34 samples.

Results

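The genes described are 10 members of the antioxidant programme of the transcription factor NRF2, together with peroxiredoxins: Nfe2l2, Sqstm1, Gclc, Gclm, Slc7a11, Txnrd1, Srxn1, Prdx1, Prdx2 and Prdx6. They were chosen by symbol, and all 10 were found among the 54532 gene IDs counted in each library. Messenger RNA from mouse blood was sequenced in a study of ALY688, an agonist of the adiponectin receptors. All mice were wild type. The groups were 7 mice given ALY688 with lipopolysaccharide (LPS, an outer membrane component of Gram-negative bacteria), 4 given LPS, 10 given ALY688 and 9 given phosphate-buffered saline (PBS). Labels named 34 mice, of which 30 are described; the tenth PBS mouse and the LPS mice numbered 3, 4 and 5 were not used here. The labels state no dose, sampling time, age or sex. The series text speaks of plasma for the ALY688 experiment and of whole blood for the LPS experiment, while every sample is labelled blood, so LPS treatment and experiment cannot be told apart.

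NRF2, the product of Nfe2l2, is held in the cytoplasm and marked for degradation by KEAP1, and oxidants or electrophiles free it to enter the nucleus. There it pairs with small MAF proteins on antioxidant response elements and raises transcription of enzymes that make glutathione and reduce thioredoxin, while BACH1 competes for the same elements. Peroxiredoxins remove peroxides with reducing power from thioredoxin or glutathione, and Prdx2 is among the most abundant proteins of the red cell cytosol.

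Promoter sequences were available for 8 of the 10 genes, from RefSeq on GRCm38.p6, as windows from 250 bases before to 50 bases after each transcription start. Gclc and Prdx6 had no entry. The windows below are those of Nfe2l2 itself, of Gclm and Prdx2, whose levels moved together across libraries, of Srxn1, which moved with Prdx6, and of Txnrd1, which went the other way. Capitals mark matches on either strand to the antioxidant response element core TGACNNNGC, and a match on the opposite strand reads as its reverse complement.
Nfe2l2, chr2:75704614-75704913, minus strand: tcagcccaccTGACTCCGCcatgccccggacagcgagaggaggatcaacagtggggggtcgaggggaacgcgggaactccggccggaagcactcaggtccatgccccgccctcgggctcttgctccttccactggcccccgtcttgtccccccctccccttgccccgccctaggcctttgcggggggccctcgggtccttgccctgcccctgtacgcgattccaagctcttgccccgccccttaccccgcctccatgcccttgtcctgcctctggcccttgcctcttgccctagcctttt
Gclm, chr3:122245307-122245606, plus strand: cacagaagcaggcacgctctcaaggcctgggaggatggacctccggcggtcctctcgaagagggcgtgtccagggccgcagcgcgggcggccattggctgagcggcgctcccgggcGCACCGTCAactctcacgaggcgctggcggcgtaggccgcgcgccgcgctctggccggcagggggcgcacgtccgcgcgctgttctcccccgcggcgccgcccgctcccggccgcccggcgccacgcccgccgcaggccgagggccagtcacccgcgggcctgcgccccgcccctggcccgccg
Prdx2, chr8:84969372-84969671, plus strand: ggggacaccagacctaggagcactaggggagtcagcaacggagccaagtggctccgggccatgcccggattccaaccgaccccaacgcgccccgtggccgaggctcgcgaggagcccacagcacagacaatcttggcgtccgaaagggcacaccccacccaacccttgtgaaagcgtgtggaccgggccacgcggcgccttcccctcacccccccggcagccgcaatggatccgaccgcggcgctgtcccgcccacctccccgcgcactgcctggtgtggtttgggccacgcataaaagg
Srxn1, chr2:152105274-152105573, plus strand: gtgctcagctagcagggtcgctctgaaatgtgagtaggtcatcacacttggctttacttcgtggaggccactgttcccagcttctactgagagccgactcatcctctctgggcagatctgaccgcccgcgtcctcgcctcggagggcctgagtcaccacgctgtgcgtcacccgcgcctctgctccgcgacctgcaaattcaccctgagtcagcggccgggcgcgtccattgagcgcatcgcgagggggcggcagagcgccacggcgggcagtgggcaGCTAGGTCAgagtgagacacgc
Txnrd1, chr10:82858956-82859255, plus strand: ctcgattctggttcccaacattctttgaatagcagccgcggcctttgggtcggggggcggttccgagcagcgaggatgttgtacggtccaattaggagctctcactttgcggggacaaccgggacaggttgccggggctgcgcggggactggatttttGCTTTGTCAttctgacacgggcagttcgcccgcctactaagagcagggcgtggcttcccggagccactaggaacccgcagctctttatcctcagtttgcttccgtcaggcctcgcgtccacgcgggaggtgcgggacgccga
The core was matched at -240 from the start in Nfe2l2, at -134 in Gclm, at -92 in this Txnrd1 window (1 of 3 listed for the gene), at 29 in Srxn1, and at -133 in Prdx1, whose window is not shown. No match lay in the windows of Prdx2, Sqstm1 or Slc7a11, which says only that these letters were absent there. Of all 32851 promoter windows of this length, 4071 (12.4%) held a match on either strand, so a match is a common feature and a description, not a binding site.

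Libraries held 10087871 to 15349120 counts with ALY688 and LPS, 10914821 to 17338214 with LPS, 10893714 to 12514008 with ALY688 and 9554964 to 11289689 with PBS. Globin transcripts, the haemoglobin mRNA of young red cells, took 26.3% to 54.3%, 18.5% to 43.7%, 42.2% to 60.8% and 45.2% to 64.4% of the counts in the same order of groups. Levels below are in CPM, counts brought to a common library total with TMM scaling, and the scaling factors ran from 0.349 to 2.39 between libraries, so a level depends on the scaling as well as on the counts. Genes with a count numbered 14351 to 19746 per library, and 6 libraries had fewer than 16000: ALY688+LPS mice 6 and 8, ALY688 mouse 7 and PBS mice 5, 6 and 9. The value of 3 counts, taken as the floor of detection, lay between 0.0725 and 0.860 CPM and covers counting error only.

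Per kilobase of exon, Prdx2 stood highest in every group, with a median of 150 CPM per kb with ALY688 and LPS, 80.7 with LPS, 99.4 with ALY688 and 149 with PBS. Slc7a11 stood lowest, with medians of 0.740, 0.617, 0.0934 and 0.0947 CPM per kb in the same order of groups. Gclm, Srxn1, Prdx6 and Sqstm1 filled places 2 to 5 in 3 of the groups, and in LPS mice Nfe2l2 took place 4 with 25.8 CPM per kb, next to Prdx6 with 25 and Srxn1 with 23.6. Those LPS neighbours did not differ beyond their spread, since Srxn1 alone ran over 29.9 to 152 CPM among the 4 mice. Reads of overlapping genes cannot be told apart without the strand setting of the counting: Gclm shares exon bases with Gm17494 (296 bases) and Gm6061 (244 bases), Prdx2 with Rnaseh2a (177 bases) and Junb (173 bases), and Sqstm1 with Mrnip (580 bases).

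**Figure D1:**
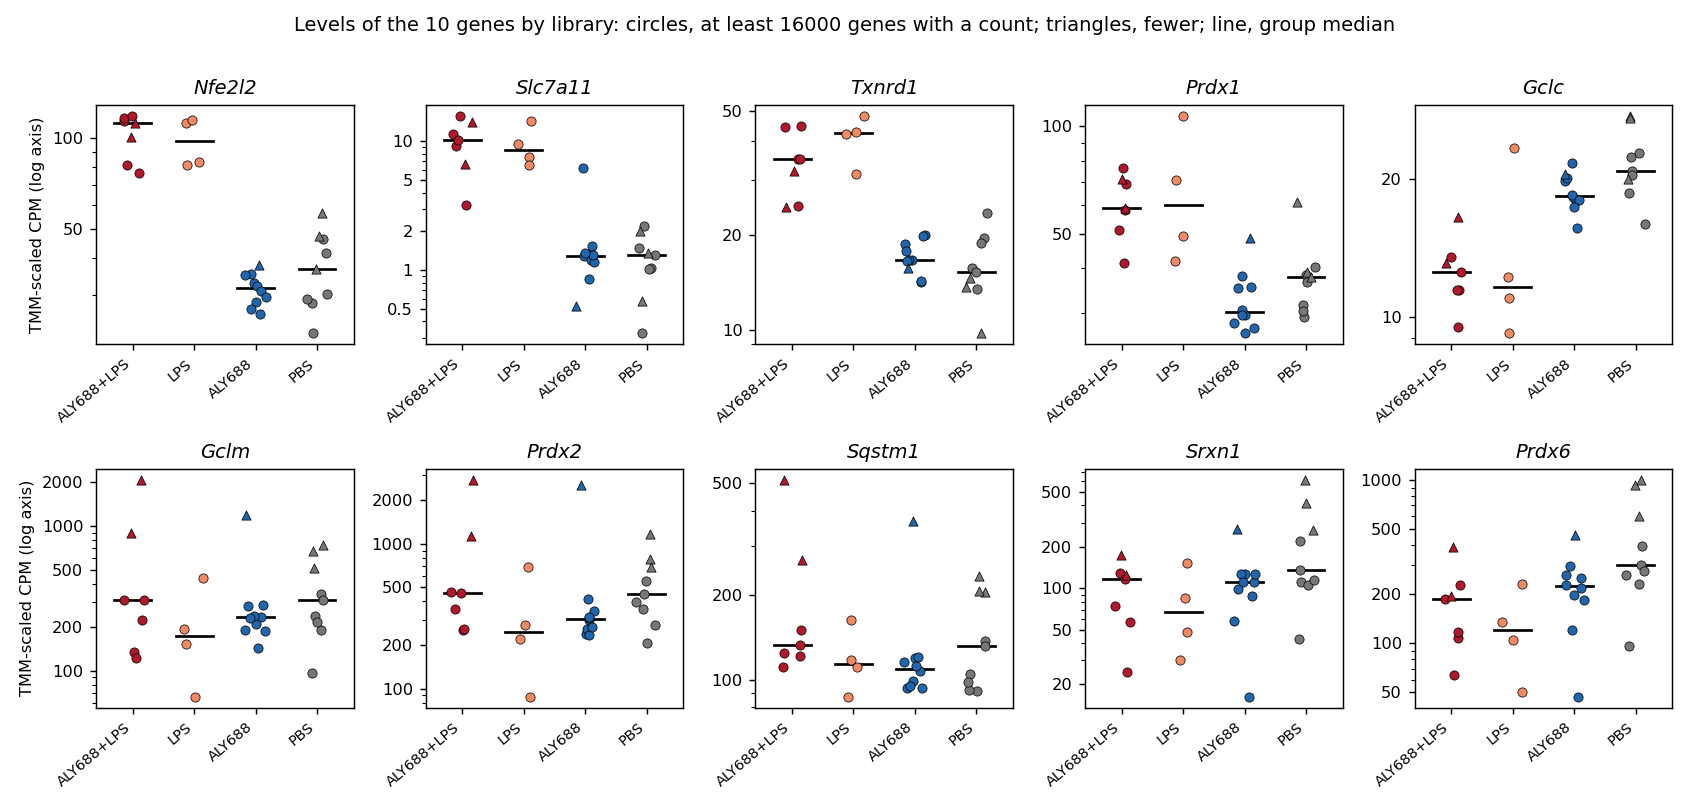
TMM-scaled CPM (log axis) of each of the 10 genes in every library, by group from ALY688+LPS to PBS; points are mice, triangles are the 6 libraries with fewer than 16000 genes, and lines are group medians. The 11 libraries with LPS lie above the 19 without it for Nfe2l2 and Txnrd1, while Gclm, Prdx2, Srxn1 and Prdx6 spread widely within each group. The share of all genes separated in that way was not counted.

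The comparison of LPS with PBS asked how blood transcripts differ after a sublethal dose of LPS. Nfe2l2, Slc7a11, Txnrd1 and Prdx1 rose in LPS mice, and Gclc and Prdx6 fell. That is 4 members higher and 2 lower of 10 in edgeR's quasi-likelihood test with Benjamini-Hochberg adjustment over 12353 genes. The count was 3 without LPS mouse 6, where 30.8% of genes passed, and 8 without LPS mouse 7, where 37.2% did. In the fit of every library, of all genes tested 38.7% passed, 20.9% higher and 17.9% lower, and the members' median log2 fold change was -0.50 against -0.04 for all genes. The 6 of 10 members called are to be read beside that background, in which calls were common. With library totals alone as scaling, 5600 of 5896 genes called were higher, against 2577 of 4785 with TMM, and the median of all genes moved to 1.04.

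Nfe2l2 lay at 76.7, 113 and 119 CPM (lowest, median, highest) with ALY688 and LPS and at 81.2, 83.4, 112 and 115 CPM in the 4 LPS mice, against 26, 31.6 and 37.9 CPM (lowest, median, highest) with ALY688 and 22.4, 36.7 and 56.5 CPM with PBS. Every library with LPS stood above every library without it. For this and the separations of groups given below, the share of all genes with the same pattern was not counted. The rise was 2.52-fold in LPS against PBS mice (log2 1.34 ± 0.23 SE, n = 4 and 9, adjusted p = 0.000267, edgeR). It was 3.24-fold in ALY688+LPS against ALY688 mice (log2 1.70 ± 0.11, n = 7 and 10, adjusted p = 2.99e-10, edgeR).

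Slc7a11, the cystine importer that supplies cysteine for glutathione, was the rarest of the 10. It lay at 3.18, 10.3 and 15.7 CPM (lowest, median, highest) with ALY688 and LPS and at 7.62, 6.57, 9.56 and 14.4 CPM with LPS, against 0.526, 1.30 and 6.18 CPM with ALY688 and 0.325, 1.32 and 2.21 CPM with PBS. These levels rest on 27 to 382, 100 to 300, 2 to 89 and 2 to 19 counts in the same order of groups, and the lowest counts lie under the floor of 3. LPS and PBS mice did not overlap, and 6 of 7 ALY688+LPS mice stood above all ALY688 mice, of which mouse 9 (6.18 CPM) exceeded the others by 3.97-fold or more. The rise was 7.39-fold in LPS mice (log2 2.89 ± 0.34, adjusted p = 9.14e-06) and 5.81-fold in ALY688+LPS mice against ALY688 (log2 2.54 ± 0.39, adjusted p = 2.21e-05, edgeR).

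Txnrd1, the cytosolic reductase that recharges thioredoxin, lay at 24.7, 35.1 and 44.7 CPM with ALY688 and LPS and at 42.1, 48.2, 31.3 and 42.8 CPM with LPS, against 14.2, 16.7 and 20.1 CPM with ALY688 and 9.74, 15.3 and 23.5 CPM with PBS. Again every library with LPS stood above every library without it, by a narrow margin at the edge. Txnrd1 rose 2.44-fold in LPS mice (log2 1.29 ± 0.18, adjusted p = 3.29e-05) and 2.00-fold in ALY688+LPS mice against ALY688 (log2 1.00 ± 0.12, adjusted p = 7.40e-07, edgeR). With the globin percentage as a covariate, whose ranges in LPS and PBS mice do not overlap, the Txnrd1 difference between LPS and PBS was 0.79 on the log2 scale and did not pass (adjusted p = 0.0876). Over its alternatives other than single leave-outs, the adjusted p of that difference ran from 1.07e-11 to 0.0876. The missing overlap of globin shares limits every LPS against PBS value with the globin covariate given below.

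Prdx1, a thioredoxin-dependent peroxiredoxin of the cytosol and a classical NRF2 target, overlapped between groups. It lay at 41.4, 59.0 and 76.5 CPM with ALY688 and LPS and at 70.8, 107, 41.9 and 49.4 CPM with LPS, against 26.3, 30.1 and 48.7 CPM with ALY688 and 29.2, 37.8 and 61.3 CPM with PBS. LPS mice 2 and 6 exceeded all PBS mice, and 6 of 7 ALY688+LPS mice exceeded all ALY688 mice. Prdx1 rose 1.68-fold in LPS mice (log2 0.75 ± 0.23, adjusted p = 0.0181) and 1.84-fold in ALY688+LPS mice against ALY688 (log2 0.88 ± 0.14, adjusted p = 3.83e-05, edgeR). The call against PBS rested on LPS mouse 6 (adjusted p = 0.127 without it) and was lost with the globin covariate (0.389) and with erythroid and platelet marker levels as covariates (0.505), within a range of 0.00029 to 0.505 over alternatives other than leave-outs.

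With library totals alone, the 4 rises in LPS against PBS mice were larger, at 2.50 for Nfe2l2, 3.97 for Slc7a11, 2.36 for Txnrd1 and 2.10 for Prdx1 on the log2 scale. Relative to the shift of all genes they stood at 1.46, 2.93, 1.32 and 1.06. With the globin covariate Nfe2l2 stood at 2.33 and Slc7a11 at 3.85, and both passed.

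Gclc, the catalytic subunit of the enzyme that starts glutathione synthesis, went the other way. It lay at 9.51, 12.5 and 16.6 CPM with ALY688 and LPS and at 11, 12.2, 23.4 and 9.20 CPM with LPS, against 15.6, 18.4 and 21.8 CPM with ALY688 and 15.9, 20.9 and 27.5 CPM with PBS. Of the ALY688+LPS mice, 6 of 7 stood below every ALY688 mouse, and of the LPS mice, 3 of 4 stood below every PBS mouse, the exception being mouse 7. Gclc was 1.51-fold lower in ALY688+LPS mice against ALY688 (log2 -0.60 ± 0.11, adjusted p = 0.000104, edgeR), a direction kept under each alternative run, though without TMM scaling it did not pass (adjusted p = 0.253). Against PBS it was 1.61-fold lower in LPS mice (log2 -0.69 ± 0.24, adjusted p = 0.0331, edgeR), but this turned to 0.34 with library totals alone as scaling and to 0.06 with the globin covariate. Relative to the shift of all genes by totals alone, Gclc stood at -0.71. The call against PBS was also lost without LPS mouse 2, 6 or 8 (adjusted p = 0.116, 0.103 and 0.130), and the range over alternatives other than leave-outs was 0.00312 to 0.91.

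Prdx6, a peroxiredoxin that draws on glutathione and also acts on phospholipids, lay at 64.3, 187 and 390 CPM with ALY688 and LPS and at 104, 50.04, 231 and 136 CPM with LPS, against 47.1, 223 and 464 CPM with ALY688 and 96.8, 301 and 1007 CPM with PBS. Its groups overlapped, and 1 LPS mouse lay below all PBS mice. Prdx6 was 3.61-fold lower in LPS mice (log2 -1.85 ± 0.61, adjusted p = 0.0250, edgeR), which turned to 1.19 with the globin covariate (adjusted p = 0.251, not passing). The call was lost without the libraries under 16000 genes (0.0618), with library totals alone (0.0777), with erythroid and platelet marker levels as covariates (0.0820, log2 -0.38) and without LPS mouse 2, 6 or 8 (0.0751, 0.0819 and 0.0644). In the same comparison 4 of 10 platelet markers passed as lower. Between ALY688+LPS and ALY688 mice its log2 difference was -0.31 ± 0.38 and did not pass (adjusted p = 0.524, edgeR).

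The other 4 genes did not pass in either LPS comparison. In LPS against PBS their log2 differences were -0.82 ± 0.56 for Gclm, -0.80 ± 0.55 for Prdx2, -1.56 ± 0.65 for Srxn1 and -0.32 ± 0.32 for Sqstm1. Gclm is the modifier subunit of the enzyme whose catalytic subunit is Gclc. Srxn1 is the sulfiredoxin that repairs overoxidised peroxiredoxins, and Sqstm1 (p62) is an autophagy receptor that binds KEAP1. Gclm and Prdx2 turned higher and passed with the globin covariate (1.92 and 1.73) and with marker covariates (0.68 and 0.73). As the globin shares of LPS and PBS mice do not overlap, the values with the globin covariate cannot separate LPS from the share. With library totals alone Sqstm1 was higher by 0.87 and passed, but relative to the shift of all genes it stood at -0.18. Srxn1 stood at -0.08 with marker covariates. It passed as lower by DESeq2 (adjusted p = 0.0231), in the fit over all 4 groups (0.0450), without PBS mouse 3 (0.0319) and without LPS mouse 7 (0.0369), within a range of 0.0231 to 0.719 over its alternatives other than leave-outs, and Prdx2 passed as lower without LPS mouse 7 (log2 -1.54, adjusted p = 0.0451).

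The same question under ALY688 was addressed by ALY688+LPS against ALY688 mice, in which Nfe2l2, Slc7a11, Txnrd1 and Prdx1 rose and Gclc fell. That is 4 higher and 1 lower of 10 by edgeR, where 53% of 12266 genes passed, 26.4% higher and 26.6% lower, so the share of members called was close to that of all genes. The members' median log2 fold change was 0.74 against -0.05 for all genes. Gclm, Prdx2 and Sqstm1 had log2 differences of 0.86 ± 0.59, 0.62 ± 0.62 and 0.61 ± 0.37 and did not pass. Each of the 3 turned on single libraries: without ALY688 mouse 7 they rose by 1.33, 1.40 and 0.90 (adjusted p = 0.0245, 0.00732 and 0.00648), bringing the members called to 8 (56.7% of genes passed), while without ALY688+LPS mouse 8 they stood at -0.02, -0.19 and 0.15. With both mice and the other libraries under 16000 genes left out, they stood at 0.01, 0.30 and 0.31, and Sqstm1 passed (adjusted p = 0.0222).

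**Figure D2:**
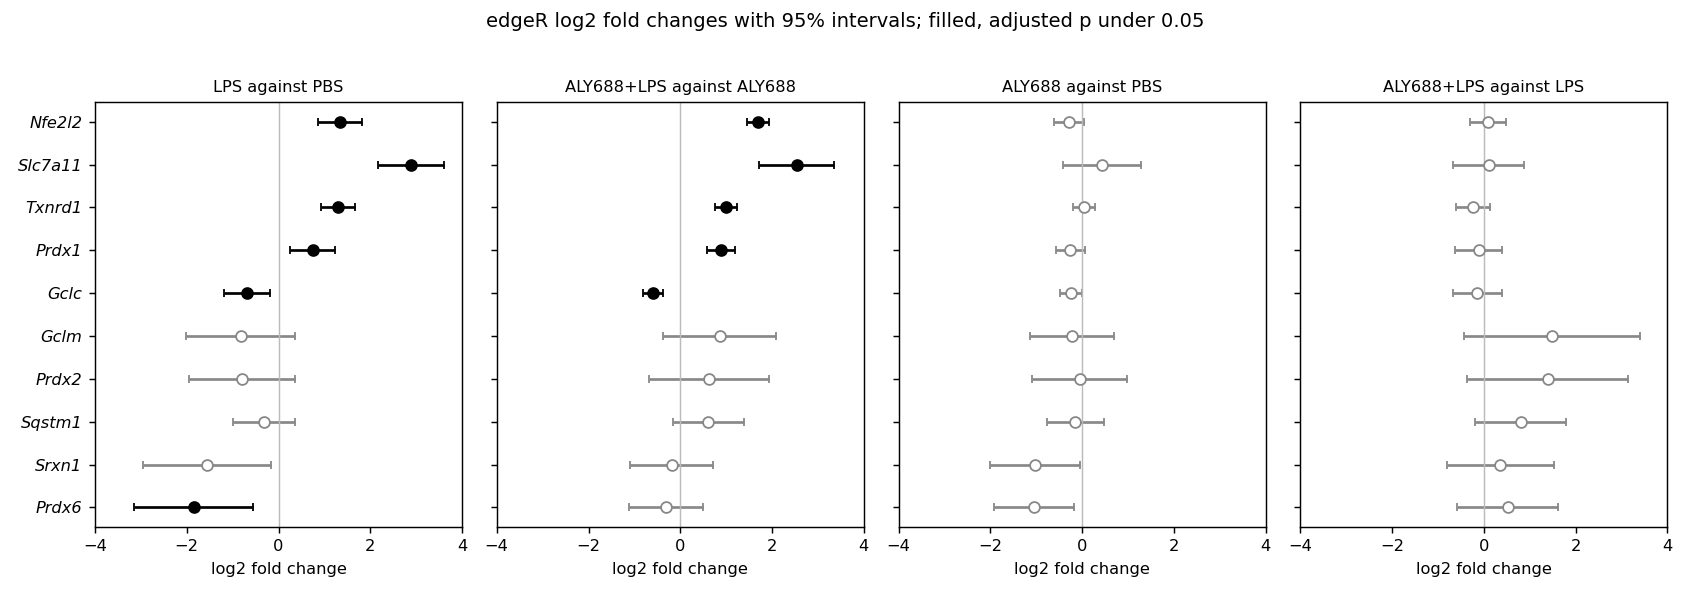
Log2 fold changes of the 10 genes in 4 comparisons, with 95% intervals; filled points passed edgeR's test at an adjusted p below 0.05. No gene passed in the 2 comparisons for ALY688, 6 passed in LPS against PBS and 5 in ALY688+LPS against ALY688.

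Markers of blood cells shifted with LPS in the same libraries. Summed neutrophil markers reached 5693 to 13663 CPM with ALY688 and LPS and 4506 to 14642 with LPS, against 528 to 1402 with ALY688 and 576 to 2079 with PBS. All 12 neutrophil markers passed as higher in LPS mice, 6 of 8 NK cell markers passed as higher, and of 10 monocyte markers 5 passed as higher and 1 as lower, while all 8 B cell and all 9 T cell markers passed as lower. Summed B cell markers were 111 to 603, 89.3 to 243, 714 to 1589 and 533 to 1809 CPM in the same order of groups, and no list had a marker at 0 throughout a group. Of 10 platelet markers 4 passed as lower in LPS mice (median log2 difference of the list -1.72), and of 14 erythroid markers 3 passed as lower and 1 as higher (median -0.93). Summed platelet markers ran over 1237 to 9661, 1577 to 7524, 835 to 13561 and 2026 to 31779 CPM in the same order of groups, and summed erythroid markers over 13194 to 175103, 3789 to 48559, 28775 to 194767 and 26644 to 139200 CPM. In ALY688+LPS against ALY688 mice 0 of 10 platelet markers passed, and 4 of 15 erythroid markers passed as higher. Apart from the fits with erythroid and platelet marker levels or the globin share as covariates, the part of these shifts in the members' differences was not tested, and in bulk blood fewer cells of a type and less RNA per cell cannot be told apart.

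The comparison of ALY688 with PBS addressed the study's search for blood markers of the agonist. No member passed: 0 of 10 by edgeR and 0 by DESeq2, where 0% of 11708 genes passed by edgeR, and 1250 genes had an unadjusted p below 0.05. Among them were 3 members, all lower in value with ALY688: Prdx6 (log2 -1.05, 95% interval -1.92 to -0.17), Srxn1 (-1.02, -1.996 to -0.05) and Gclc (-0.24, -0.48 to -0.01). None of the 3 kept an unadjusted p below 0.05 without the libraries under 16000 genes, where they stood at -0.40, -0.36 and -0.14.

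Srxn1 lay at 16.3, 111 and 270 CPM with ALY688, against 42.7, 137 and 616 CPM with PBS. Prdx6 lay at 47.1, 223 and 464 CPM with ALY688, against 96.8, 301 and 1007 CPM with PBS. In both genes 1 ALY688 mouse lay below all PBS mice. At the upper end PBS mice 5 and 9 stood above every ALY688 mouse for Srxn1 (414 and 616 CPM), and for Prdx6 PBS mice 5, 6 and 9 did (930, 602 and 1007 CPM), all 3 among the libraries under 16000 genes. Summed platelet markers spanned 835 to 13561 CPM with ALY688 and 2026 to 31779 CPM with PBS, with none of 10 tested markers passing. With erythroid and platelet marker levels in the fit, the differences were -0.05 for Srxn1 and -0.17 for Prdx6.

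For the other 7 genes the intervals for ALY688 against PBS bound what these mice could show. Of these 7 Txnrd1 had the narrowest interval, at 0.05 on the log2 scale (95% interval -0.19 to 0.29). Nfe2l2 stood at -0.28 (-0.62 to 0.05) and Prdx1 at -0.25 (-0.58 to 0.07). Slc7a11 stood at 0.44 (-0.41 to 1.28), Sqstm1 at -0.15 (-0.77 to 0.48), Gclm at -0.22 (-1.13 to 0.70) and Prdx2 at -0.05 (-1.09 to 0.99). Without ALY688 mouse 7 these last 3 stood at -0.51, -0.80 and -0.95, and none passed (adjusted p = 0.156, 0.158 and 0.148, edgeR). Without ALY688 mouse 9 Slc7a11 stood at -0.076. With library totals alone the values of Nfe2l2, Gclc, Gclm, Prdx1, Prdx2 and Sqstm1 turned positive, a setting that moved the median of all genes to 0.50. Relative to that median they stood at -0.16, -0.18, -0.24, -0.22, -0.32 and -0.17.

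Whether ALY688 altered the response to LPS was addressed by ALY688+LPS against LPS mice. No member passed by edgeR (0 of 10, with 0% of 12741 genes, adjusted p 0.913 to 0.977) or DESeq2, and none of the members was among the 463 genes with an unadjusted p below 0.05. The differences of Nfe2l2 (0.09, 95% interval -0.30 to 0.48), Slc7a11 (0.11, -0.66 to 0.88), Prdx1 (-0.11, -0.63 to 0.41), Gclc (-0.14, -0.67 to 0.40) and Txnrd1 (-0.23, -0.61 to 0.14) were small against their errors. Srxn1 stood at 0.36 (-0.81 to 1.53) and Prdx6 at 0.52 (-0.58 to 1.62).

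The differences furthest from 0 were those of Gclm, Prdx2 and Sqstm1. Gclm lay at 122, 309 and 2091 CPM with ALY688 and LPS, against 153, 66.1, 437 and 195 CPM in LPS mice 2, 6, 7 and 8. Prdx2 lay at 252, 458 and 2779 CPM with ALY688 and LPS, against 218, 87.8, 694 and 274 CPM with LPS, and Sqstm1 at 111, 133 and 516 CPM, against 118, 87.0, 163 and 111 CPM. ALY688+LPS mouse 8 held the highest value of all 3 genes, and the groups overlapped. The log2 differences of 1.498 ± 0.88, 1.39 ± 0.81 and 0.80 ± 0.46 were 0.64, 0.60 and 0.34 without that mouse.

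The interaction, the effect of ALY688 with LPS minus that without, was positive in value for 8 members and passed for none by edgeR (0 of 10, with 0% of 13476 genes) or DESeq2, which called 4 genes elsewhere. Of 1217 genes with an unadjusted p below 0.05, 1 was a member, Prdx6 at 1.56 ± 0.69 (adjusted p = 0.506, edgeR). Without the libraries under 16000 genes it was 0.51.

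Within groups, several members followed the share of globin transcripts. After removal of the globin counts and with group terms in the fit, 7 of 10 members had a slope on the globin share that passed, 6 higher and 1 lower, where 34.2% of 13297 genes passed, 17% higher and 17.2% lower. The members' median slope per 10 points of globin share was 0.42 on the log2 scale, against -0.06 for all genes. Gclm and Prdx2 had the steepest slopes, 1.20 ± 0.13 (adjusted p = 3.14e-08) and 1.18 ± 0.13 (5.23e-08), more than a doubling for each 10 points (2.30-fold and 2.27-fold). Srxn1 (0.86 ± 0.18), Prdx6 (0.81 ± 0.15) and Sqstm1 (0.64 ± 0.09) followed with adjusted p = 0.000584, 0.000199 and 5.22e-06.

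Gclc had a shallow slope of 0.21 ± 0.06 (adjusted p = 0.0122), which lost its call without LPS mouse 7 (adjusted p = 0.141). With library totals alone the Gclc slope was -0.25, where the median of all genes was -0.51. Relative to that median it stood at 0.26. Txnrd1 was the member that fell as the globin share grew, by 0.19 on the log2 scale per 10 points (SE 0.06, adjusted p = 0.00909, edgeR). Nfe2l2 (0.15 ± 0.07), Prdx1 (0.10 ± 0.08) and Slc7a11 (-0.00 ± 0.20) did not pass, though Nfe2l2 passed without ALY688+LPS mouse 7 (0.21, adjusted p = 0.0367). In libraries without LPS 7 members passed, all higher, with Nfe2l2 at 0.35 and Prdx1 at 0.46 in place of Gclc and Txnrd1, where 26.8% of genes passed (16.5% higher). In libraries with LPS 7 passed, where 19.6% of genes did. Without the libraries under 16000 genes 5 passed, where 10.7% of genes did (Gclm 0.74, Prdx2 0.68, Srxn1 0.77, Prdx6 0.70 and Sqstm1 0.22). In that last setting 1418 genes passed, against 4550 with every library.

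**Figure D3:**
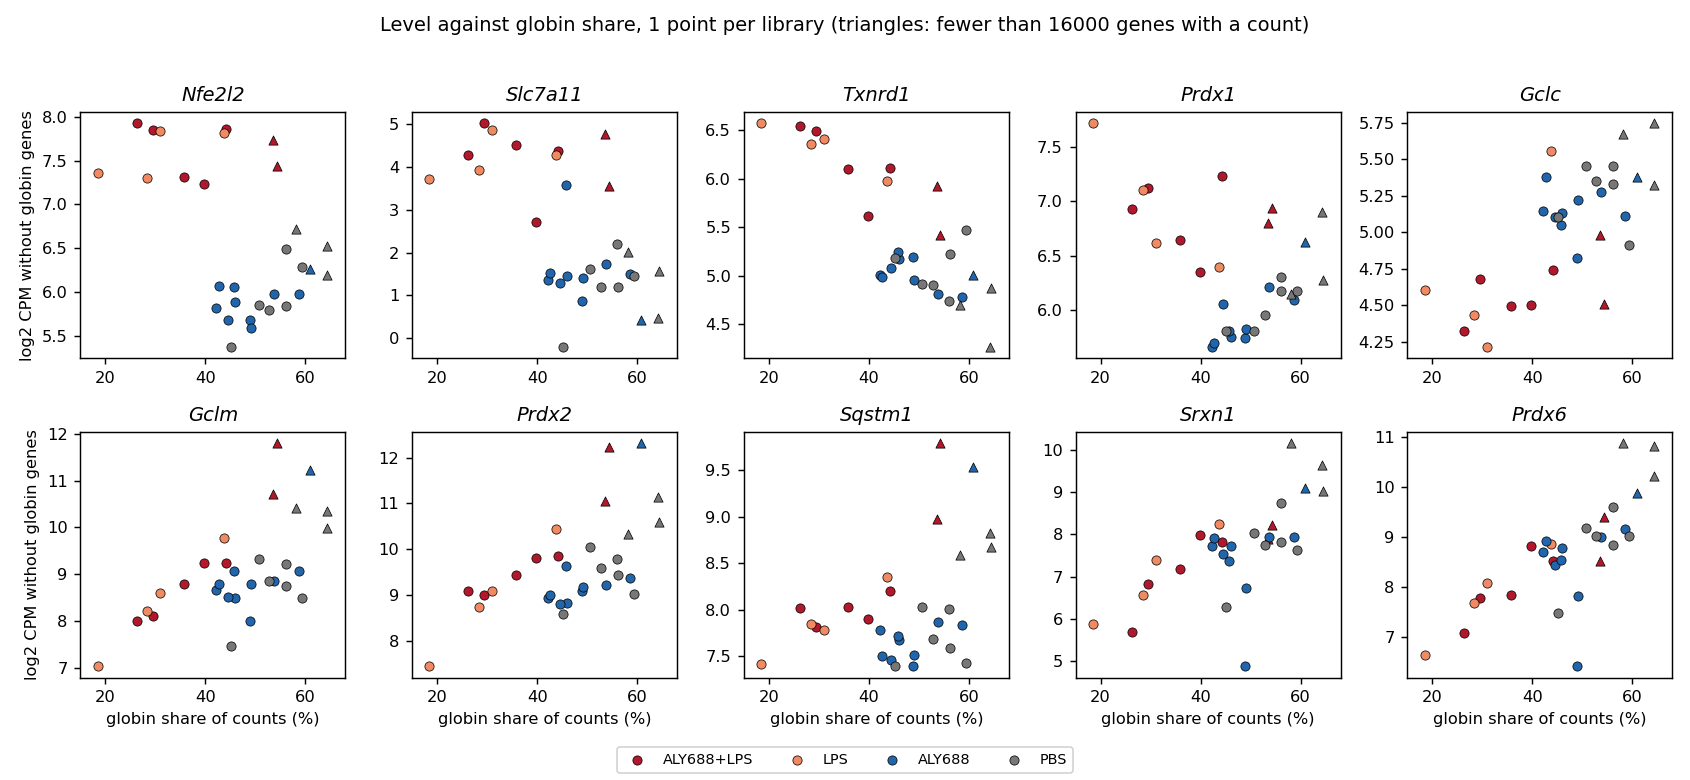
Log2 CPM computed without globin genes against the globin share of counts (percent) for the 10 genes; points are libraries coloured by group and triangles are the 6 libraries with fewer than 16000 genes. Gclm, Prdx2 and Sqstm1 climb with the share, while Slc7a11 differs by group with no visible slope.

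Within single groups, how far the relation rested on the libraries farthest from the median share differed by group and gene. Of 30 correlations of a member with the globin share (10 genes in the ALY688+LPS, ALY688 and PBS groups), 14 passed on Pearson's r with permutation tests adjusted over the 30. The share of all genes passing such a test was not counted, so these counts are no result about the members. Gclm (r = 0.95, rho = 0.96) and Prdx2 (r = 0.92, rho = 0.96) in the 7 ALY688+LPS mice passed on both measures, with adjusted p = 0.00893 each on r and 0.0417 on rho (exact permutation, two-sided). Without the 2 libraries farthest from the median share their r was 0.97 and 0.96, not tested because only 5 ALY688+LPS mice remained. In that setting 0 of the relations tested, those in the remaining 8 ALY688 and 7 PBS mice, passed. In the 10 ALY688 mice r for Gclm was 0.67 and turned to -0.03 without the 2 farthest libraries, so it rested on those. Prdx1 had r = 0.83 in ALY688 and 0.82 in PBS mice (rho 0.82 and 0.73, permutation, adjusted p = 0.0312 and 0.0366 on r, and 0.0545 and 0.114 on rho), and kept 0.65 and 0.91 without the farthest 2. Without the libraries under 16000 genes 0 of the relations tested in ALY688 and PBS mice passed. Those in ALY688+LPS mice were again not tested, as too few mice remained. With totals alone in place of TMM 8 of 30 passed.

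The members were next set against summed markers of each blood cell type over 30 libraries with the group means removed, correlations added after seeing the data. Here and below, both sides of a correlation carry the TMM factor of each library, and no other scaling was run for them. Srxn1 tracked the summed platelet markers with r = 0.997 (rho 0.994) and Prdx6 with r = 0.985 (rho 0.982). Gclm (r = 0.966), Prdx2 (0.964) and Sqstm1 (0.916) tracked the erythroid markers most closely. Their rho was 0.891 for Gclm, 0.935 for Prdx2 and 0.890 for Sqstm1. Each of the 5 values of r had a permutation p of 1e-05, the smallest that 100000 permutations can give, and an adjusted p of 8.75e-05 over 70 relations. In the order Srxn1, Prdx6, Gclm, Prdx2 and Sqstm1, r was 0.996, 0.978, 0.946, 0.959 and 0.876 without the 2 farthest libraries, and 0.997, 0.983, 0.914, 0.944 and 0.812 without the 6 libraries under 16000 genes.

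**Figure D4:**
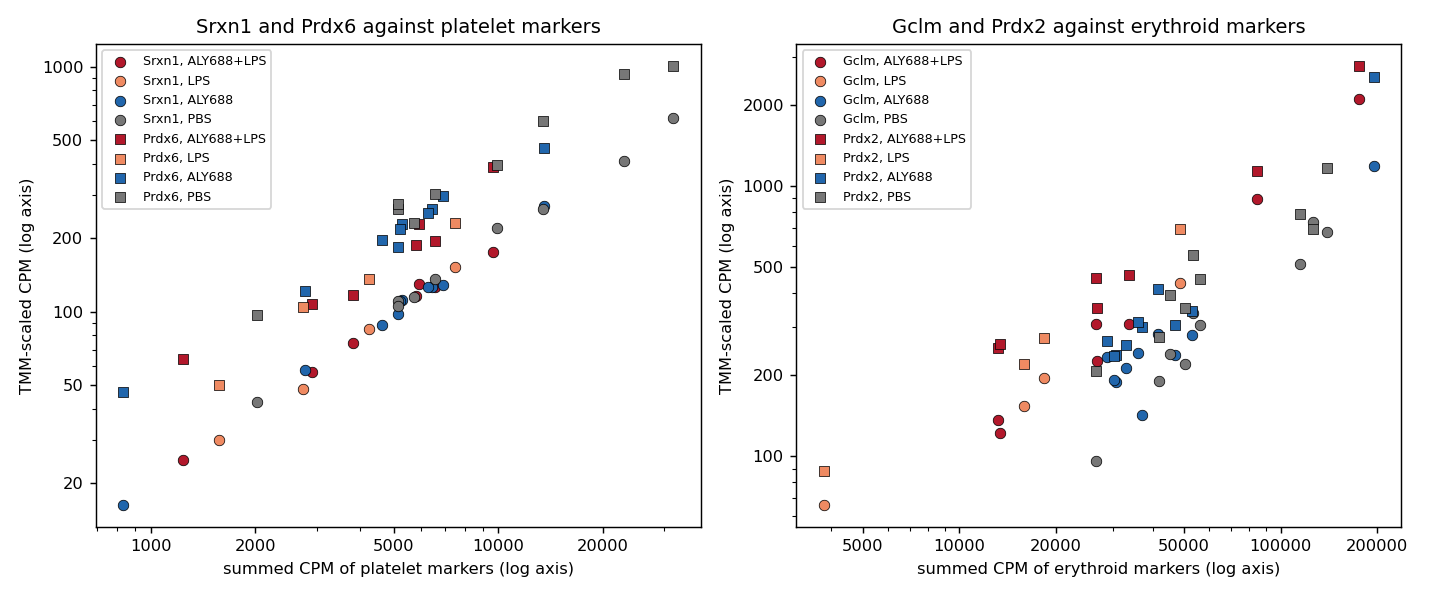
Levels of Srxn1 and Prdx6 against summed platelet markers, and of Gclm and Prdx2 against summed erythroid markers, in TMM-scaled CPM on log axes, 1 point per library, coloured by group. The 30 points of Srxn1 lie close to 1 line across all groups (r = 0.997 with group means removed).

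With both marker levels in 1 fit, an alternative chosen after seeing the data, the members split between them. On the erythroid level 3 members passed, all higher, where 7.49% of genes passed (6.09% higher): Prdx2 with a log2 slope of 0.98 ± 0.08 per doubling, Gclm with 0.81 ± 0.06 and Sqstm1 with 0.50 ± 0.07. On the platelet level 3 passed, all higher, where 12.7% passed (11.7% higher): Srxn1 with 1.04 ± 0.05, Prdx6 with 0.84 ± 0.06 and Gclm with 0.25 ± 0.07. Srxn1 and Prdx6 had erythroid slopes of -0.03 ± 0.04 and 0.07 ± 0.05 that did not pass, and Prdx2 and Sqstm1 platelet slopes of -0.00 ± 0.08 and 0.07 ± 0.07. Without the libraries under 16000 genes, the platelet slopes of Srxn1 and Prdx6 were 1.04 and 0.84, and the erythroid slope of Sqstm1 was 0.23 and did not pass (adjusted p = 0.0589). With the platelet level alone beside the globin share, only Gclm, Prdx2 and Sqstm1 kept a globin slope that passed (0.75, 0.90 and 0.40).

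The other 5 genes had looser relations. Nfe2l2 had r = 0.773 with neutrophil and 0.739 with monocyte markers (rho 0.751 and 0.657), and r = -0.790 with B cell markers (rho -0.824), beside 0.581 with platelet and 0.434 with erythroid markers. Txnrd1 had r = 0.719 with NK cell markers (rho 0.746) and r = -0.728 with platelet and -0.670 with erythroid markers (rho -0.806 and -0.686), and Prdx1 had r = 0.636 with monocyte markers (rho 0.746). The value of r farthest from 0 for Slc7a11 was -0.465, with B cell markers, and that for Gclc was 0.602, with platelet markers, followed by 0.535 with erythroid markers, and no white cell list passed for Gclc.

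**Figure D5:**
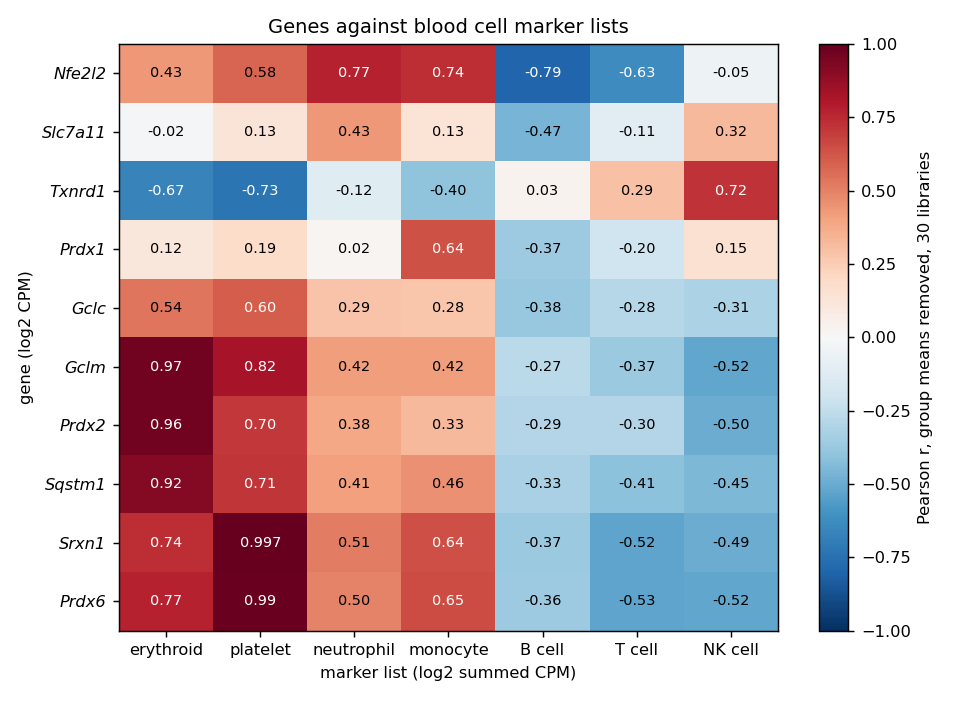
Pearson's r of each of the 10 genes with the summed markers of 7 blood cell types over 30 libraries, group means removed. Srxn1 and Prdx6 are highest with platelet markers and Gclm, Prdx2 and Sqstm1 with erythroid markers.

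Pairs of members were compared in the same way. Of 45 pairs, the highest r were those of Srxn1 with Prdx6 (0.98), Gclm with Prdx2 (0.96), Prdx2 with Sqstm1 (0.94) and Gclm with Sqstm1 (0.93), each with an adjusted p of 6.43e-05 by permutation. Without the 2 farthest libraries they were 0.97, 0.95, 0.89 and 0.90, and rho over all libraries was 0.98, 0.96, 0.89 and 0.90. Txnrd1 ran against them, with r = -0.75 for Prdx6, -0.73 for Srxn1 and -0.70 for Gclm. Gclm and Gclc, the subunits of 1 enzyme, had r = 0.58. The log2 ratio of Gclm to Gclc counts averaged 4.82 ± 1.33 (SD, n = 7) with ALY688 and LPS, 3.71 ± 0.89 (n = 4) with LPS, 3.79 ± 0.77 (n = 10) with ALY688 and 3.84 ± 0.76 (n = 9) with PBS. The log2 ratio of Prdx1 to Prdx2 averaged -3.20 ± 1.22, -1.97 ± 1.80, -3.49 ± 0.83 and -3.67 ± 0.62 in the same order of groups. None of 8 permutation tests of these ratios passed after adjustment, the nearest being Prdx1 to Prdx2 in LPS against PBS (difference 1.70, exact p = 0.0392, adjusted p = 0.272, two-sided).

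Over all genes averaging at least 5 CPM, the 3 with the pattern most like each member, by Pearson's r over 30 libraries with group means removed, were as follows. For Srxn1 they were Gp5, Tubb1 and P2rx1 (0.99 each), which encode a platelet glycoprotein, a platelet tubulin and an ATP receptor. Tubb1 is also in the platelet list. For Prdx6 they were Dap, Clic4 and Odc1 (0.99 each). For Gclm they were Bnip3l, a mitophagy receptor of maturing red cells that is also in the erythroid list, Smap1 and Rnf11 (0.99 each), and for Prdx2 March5, Psme3 and Dhrs11 (0.99 each). Sqstm1 was nearest to Psmd4 (0.98), Map2k2 (0.98) and Selenok (0.97). Nfe2l2 was nearest to Clec4e, a lectin of activated myeloid cells (0.90), Fyb (0.90) and Pla2g7 (0.88). Txnrd1 was nearest to Ccnd2 (0.84), Nfkbie (0.83) and Sh2d2a (0.83), and Slc7a11 to Ets2 (0.78), Samsn1 (0.70) and Tarm1 (0.70). Prdx1 was nearest to Cct8 (0.76), Cln8 (0.75) and Atp5a1 (0.74), and Gclc to Kcna3 (0.72), Zranb3 (0.72) and Map7 (0.71).

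Other genes of the pathway were counted by list. Of 13 other NRF2 targets tested in LPS against PBS, 5 rose and 3 fell, beside 20.9% of all genes higher and 17.9% lower. Hmox1, which breaks down haem, was higher by 3.49 ± 0.26 on the log2 scale, Osgin1 by 1.80 ± 0.26, and the pentose phosphate enzymes G6pdx and Tkt by 1.48 ± 0.29 and 1.47 ± 0.18. Hmox1 lay at 43.8 to 111 CPM with ALY688 and LPS and at 59.1 to 183 CPM with LPS, against 5.00 to 12.7 CPM with ALY688 and 5.08 to 11.5 CPM with PBS, with no overlap. In ALY688+LPS against ALY688 mice 5 of the 13 rose and none fell, beside 26.4% of all genes higher and 26.6% lower.

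Of 9 genes that control NRF2, 2 rose in LPS mice: Bach1, its repressor (1.20 ± 0.25), and the related factor Nfe2l1 (0.91 ± 0.13). Of 11 genes of glutathione use and supply 3 rose and 2 fell, among them glutaredoxin Glrx (2.50 ± 0.23), glutathione reductase Gsr (1.51 ± 0.32), Gstp1 (1.46 ± 0.29) and the lipid peroxidase Gpx4 (-2.10 ± 0.62). Of 10 thioredoxin and other peroxiredoxin genes 2 rose and 2 fell: Txn1, the substrate of Txnrd1 (1.85 ± 0.23), Sesn2 (1.84 ± 0.26), Sesn1 (-1.32 ± 0.26) and the mitochondrial reductase Txnrd2 (-1.52 ± 0.51). Of 3 superoxide and peroxide genes Cat, catalase, fell (-1.63 ± 0.56). In ALY688+LPS against ALY688 mice the counts were 5 higher and 0 lower of 8 NRF2 control genes, 4 and 3 of 11, 5 and 2 of 10, and 0 and 0 of 3, to be read beside the same shares of all genes.

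In ALY688 against PBS, in ALY688+LPS against LPS and in the interaction, 0 genes of these 5 lists passed by edgeR, like every other gene tested. On the globin share, 7 of 13 other NRF2 targets passed as higher and none as lower, beside 17% of all genes higher and 17.2% lower, with Blvrb, a biliverdin reductase abundant in red cells (1.25 per 10 points), and the ferritin chain Ftl1 (1.03) first. Of the glutathione genes 6 of 11 passed as higher, led by Gpx1 (1.19) and Slc3a2, the partner chain of the Slc7a11 transporter (0.92). All 3 superoxide and peroxide genes passed as higher, with Cat at 1.28, and 3 of 10 thioredoxin genes did, with Txnrd2 at 1.11 and Txn2 at 0.46. Of the NRF2 control genes 2 passed as higher and 1 as lower.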

How the data were processed

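Blood messenger RNA was sequenced in 30 mice, 1 library each. The authors deposited raw counts of reads for 54532 gene IDs. The submitters' processing notes name HISAT2 (2.0.5) and featureCounts (1.5.0-p3) as tools, credited here per the submitters' processing notes without their order or settings. The build, annotation and strand setting behind the counts were not stated. Symbols and coordinates came from GENCODE M21 on GRCm38, which held 54409 IDs and lacked 123, and promoters from RefSeq.

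Groups were taken from the treatment labels. Each comparison used edgeR 4.0.16 in R 4.3.3 (filterByExpr, TMM, robust quasi-likelihood F-test, two-sided), fitted on the groups compared, or on all groups for the interaction and the globin slope, with Benjamini-Hochberg adjustment over all genes and a threshold of 0.05. The globin slope was fitted without globin genes. DESeq2 1.42.0 was an alternative. Correlations used log2 CPM with a prior count of 2 and scipy 1.17.1, with exact permutation tests under 10 mice and 100000 permutations otherwise. The edgeR fits were also run on simulated counts with the same dispersion for every gene and without the differences in globin share between libraries. Those runs therefore do not cover errors from such differences. Totals were 9554964 to 17338214 counts, and no 2 libraries of a group agreed within sampling noise (chi-square per degree of freedom at least 8.02).

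Members and lists were chosen with earlier results of these data known. All 10 members are named in each comparison; of each pathway list, up to 4 genes with the smallest unadjusted p in LPS against PBS and up to 2 in any other comparison; and for each member its 3 nearest genes. Alternatives were other scalings, no filter, globin genes removed, the globin percentage as a covariate, a fit of all groups, a mouse-number block, and leaving out libraries. Covariates and correlations built on marker levels, and the pairs of members, were added after seeing the data.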

Additional observations from a re-analysis of the deposited data

Results flagged for a closer look

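Of 40 sets of values (10 genes in 4 groups), 10 had a highest library set apart from its group by Dixon's gap test. About 2 would be flagged by chance if values were normal and the sets independent. CPM values are skewed and several of these genes moved together, so that number is no measure of an excess. In ALY688+LPS mouse 8, Gclm stood at 2091 CPM, Prdx2 at 2779 CPM and Sqstm1 at 516 CPM. In ALY688 mouse 7, Gclm stood at 1184 CPM, Prdx2 at 2538 CPM, Sqstm1 at 367 CPM, Srxn1 at 270 CPM and Prdx1 at 48.7 CPM. PBS mouse 5 had 61.3 CPM of Prdx1, and ALY688 mouse 9 had 6.18 CPM of Slc7a11. The first 3 of these mice had fewer than 16000 genes with a count, and the part of that in the values was not tested; ALY688 mouse 9 had more.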

How the results depend on the processing

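Nfe2l2, Slc7a11, Txnrd1 and Prdx1 kept their direction in both LPS comparisons under each alternative run, single leave-outs included. Most sign changes concerned differences that did not pass under either setting: 77 of 96 among alternatives other than leaving out 1 library, and 40 of 40 among leave-outs. Where the sign changed, the cause was not tested. Values are log2 differences, or log2 slopes per 10 points.

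With library totals alone, the sign changed for Nfe2l2 0.33, Gclm 0.26, Gclc 0.32, Prdx1 0.28, Prdx2 0.18 and Sqstm1 0.33 in ALY688 against PBS. Under the same setting ALY688+LPS against LPS gave Nfe2l2 -0.35, Slc7a11 -0.28, Srxn1 -0.13, Prdx6 -0.045 and Sqstm1 -0.000769. Likewise LPS against PBS gave Gclm 0.29, Gclc 0.34, Prdx2 0.22 and Sqstm1 0.87. The values that turned in the interaction were Nfe2l2 -0.68, Gclc -0.89, Prdx1 -1.08 and Sqstm1 -0.33. Here the globin slope gave Nfe2l2 -0.30, Gclc -0.25 and Prdx1 -0.39. Under that scaling the median of all genes stood at 0.50 in ALY688 against PBS, -0.49 in ALY688+LPS against LPS and 1.04 in LPS against PBS. It was 0.03 in ALY688+LPS against ALY688, -0.998 in the interaction and -0.51 for the slope. Without a filter that value was -0.14 in ALY688+LPS against ALY688. With library totals alone the genes called were 3049 in ALY688+LPS against ALY688 (6504 with TMM) and 10596 for the slope (4550). In LPS against PBS 5600 of 5896 genes called were higher with totals alone, against 2577 of 4785 with TMM.

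With the globin percentage as a covariate, the sign changed for Gclm 0.52, Txnrd1 -0.032, Prdx1 0.079, Prdx2 0.58 and Sqstm1 0.34 in ALY688 against PBS. In this setting ALY688+LPS against LPS gave Gclm -0.19, Srxn1 -0.41, Prdx1 0.017 and Prdx6 -0.23. Likewise LPS against PBS, whose globin shares do not overlap, gave Gclm 1.92, Gclc 0.064, Srxn1 1.56, Prdx2 1.73, Prdx6 1.19 and Sqstm1 1.04. The values that turned in ALY688+LPS against ALY688 were Srxn1 0.29 and Prdx6 0.13. Here the interaction gave Gclm -0.67, Gclc -0.23, Srxn1 -0.13, Txnrd1 0.032, Prdx1 -0.074, Prdx2 -0.45 and Sqstm1 -0.28. With erythroid and platelet marker levels as covariates, the sign changed for Gclm 0.38, Txnrd1 -0.040, Prdx2 0.17 and Sqstm1 0.20 in ALY688 against PBS. Under the same setting ALY688+LPS against LPS gave Nfe2l2 -0.033, Gclm -0.085 and Sqstm1 -0.12. Likewise LPS against PBS gave Gclm 0.68, Prdx2 0.73 and Sqstm1 0.43. The values that turned in the interaction were Gclm -0.38, Gclc -0.16, Prdx2 -0.13 and Sqstm1 -0.20. Under either covariate 8 members passed in ALY688+LPS against ALY688, with Gclm, Prdx2 and Sqstm1 added as higher, where 56.5% of genes passed with the globin covariate and 62.4% with marker covariates (53% with neither).

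Without the libraries under 16000 genes, the sign changed for Txnrd1 -0.060 in ALY688 against PBS. In this setting LPS against PBS gave Sqstm1 0.067. Likewise the interaction gave Gclc -0.097 and Prdx1 -7.15e-05. The values that turned in the globin slope were Slc7a11 0.036 and Prdx1 -0.067. Here r with the globin share in ALY688 mice gave Gclc -0.10. Likewise r with the globin share in PBS mice gave Gclc -0.13 and Txnrd1 0.22. The log2 ratio of Gclm to Gclc then differed by 0.14 in ALY688 against PBS and 0.29 in LPS against PBS, and 1418 genes passed for the slope. Of the correlations with the globin share, 0 of those tested in ALY688 and PBS mice passed, and those in ALY688+LPS mice were not tested. Without the 2 libraries farthest from the median share, the sign changed for Nfe2l2 -0.14, Gclm -0.030, Gclc -0.082, Srxn1 -0.27 and Prdx6 -0.24 in r with the globin share in ALY688 mice. Under the same setting r with the globin share in PBS mice gave Slc7a11 -0.45. There too 0 of the relations tested in ALY688 and PBS mice passed, and too few ALY688+LPS mice remained for a test. With non-globin totals and no TMM, the sign changed for Gclc -0.64 in r with the globin share in ALY688+LPS mice. Under the same setting r with the globin share in ALY688 mice gave Nfe2l2 -0.71, Gclc -0.75, Prdx1 -0.36 and Prdx6 -0.0040. Likewise r with the globin share in PBS mice gave Nfe2l2 -0.24, Gclc -0.87, Slc7a11 -0.096, Prdx1 -0.35 and Sqstm1 -0.13. The count passing was then 8.

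In libraries with LPS, the sign changed for Slc7a11 0.031 and Prdx1 -0.11 in the globin slope. The slope then passed for 2484 genes, and for 3127 in libraries without LPS. With the platelet level as a covariate, the sign changed for Nfe2l2 -0.016 and Srxn1 -0.031 in the globin slope. It left 517 genes (3.89%) and 3 members with a slope that passed. The slope of Slc7a11 was 0.019 with DESeq2 size factors and 0.0095 with globin genes kept. DESeq2 called 4 genes for the interaction, where edgeR called 0.

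Leaving out 1 library at a time gave these ranges, each spanning 0 or a changed call. They were, in ALY688 against PBS, Prdx2 -0.95 to 0.19, Slc7a11 -0.076 to 0.59 and Txnrd1 -0.0070 to 0.13. For the agonist under LPS they were, in ALY688+LPS against LPS, Gclc -0.31 to 0.25, Nfe2l2 -0.0027 to 0.18, Prdx1 -0.27 to 0.17 and Slc7a11 -0.054 to 0.36. For LPS under the agonist they were, in ALY688+LPS against ALY688, Gclm -0.015 to 1.33, Prdx2 -0.19 to 1.40 and Srxn1 -0.41 to 0.022. Those for the difference of effects were, in the interaction, Gclc -0.059 to 0.47, Prdx1 -0.034 to 0.42 and Slc7a11 -0.52 to 0.15. The slope of Slc7a11 ran over -0.11 to 0.088. The log2 ratio of Gclm to Gclc ran over -0.28 to 0.060 in ALY688 against PBS, -0.36 to 0.30 in LPS against PBS and 0.62 to 1.27 in ALY688+LPS against ALY688, where it passed without ALY688 mouse 7 (exact permutation, adjusted p = 0.0420). Members called ran over 3 to 8 in LPS against PBS (3 without LPS mouse 6, 8 without LPS mouse 7) and 5 to 8 in ALY688+LPS against ALY688 (8 without ALY688 mouse 7), and genes called over 0 to 1 for the interaction.

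Mouse numbers are shared between groups but did not pair the libraries: the deviations of same-numbered mice correlated above 0.1 in 2 of 9, 1 of 3, 2 of 4 and 2 of 7 pairs of the 4 comparisons. With the mouse number as a block, members called were 0 in ALY688 against PBS, 0 in ALY688+LPS against LPS, 5 in LPS against PBS, 5 in ALY688+LPS against ALY688 and 7 for the slope. These counts stand without the share of all genes called in that setting, so they are no result about the members. Under the block the sign changed for Prdx1 in ALY688+LPS against LPS (0.13), Srxn1 in ALY688+LPS against ALY688 (0.049) and the Slc7a11 slope (0.064). With 4 LPS mice, single libraries weigh heavily, and 2 counts of Slc7a11 in PBS mouse 5 and ALY688 mouse 7 set the precision of its low levels.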
